A study of Mus musculus with 8 samples.

Results

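The nuclear genes for subunits of the oxidative phosphorylation complexes were followed in C2C12 myotubes, the contractile cells that this mouse myoblast line forms in culture. They were taken by symbol: the Nduf genes of complex I, the Sdh genes of complex II, the Uqcr genes and Cyc1 of complex III, the Cox4 to Cox8 genes of complex IV and the Atp5 genes of ATP synthase. The rule found 81 of the 22180 genes with a probe set of their own on the array, each read from its brightest probe set: 33 for complex I, 4 for complex II, 9 for complex III, 17 for complex IV and 18 for ATP synthase. Of these, 77 passed the filter on dim genes. The others were the pseudogenes Atp5c1-ps and Uqcrh-ps1 and the genes Cox7b2 and Cox8c, whose human counterparts are known from testis.

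Every culture had been infected as myoblasts with a retrovirus carrying an shRNA and was then differentiated and exposed to its glucose concentration for 12 h. The 4 groups of 2 biological replicates were Baf60c knockdown myotubes at 10 mM glucose, Baf60c knockdown myotubes at 1 mM glucose, control (scrambled shRNA) myotubes at 10 mM glucose and control myotubes at 1 mM glucose. Baf60c (gene symbol Smarcd3) belongs to the BAF family of chromatin remodellers and is enriched in heart and skeletal muscle. All comparisons are within 1 cell line and 1 time point, and the sources used here do not give the number of shRNA sequences.

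Complexes I and II pass electrons from NADH and succinate to ubiquinone, complex III passes them to cytochrome c, and complex IV (cytochrome c oxidase) passes them to oxygen. The proton gradient built by complexes I, III and IV drives ATP synthase. Mitochondrial DNA encodes a small part of these subunits and the nucleus the rest. Heart and skeletal muscle replace some nuclear subunits of complex IV by muscle isoforms, of which Cox6a2, Cox7a1 and Cox8b are paired with the more widely expressed Cox6a1, Cox7a2 and Cox8a.

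Values are log2 expression values, on which 1 unit is a doubling. Arrays of the same group correlated at 0.987 to 0.990 over the tested genes and arrays of different groups at 0.939 to 0.984, and no array stood apart. The only probe set that reads Smarcd3 also reads Chpf2, so the targeted gene could not be measured alone. That probe set had 3.90 and 4.49 in knockdown and 6.27 and 6.09 in control myotubes at 10 mM glucose, and 3.01 and 2.77 in knockdown and 5.62 and 5.40 in control myotubes at 1 mM. The groups did not overlap, and the log2 change was -1.98 ± 0.22 (SE) at 10 mM (limma adjusted p = 0.0171) and -2.62 ± 0.22 at 1 mM (limma adjusted p = 0.00313). The call at 10 mM was lost when any 1 of the 4 arrays compared was left out, with limma adjusted p-values of 0.0519 to 0.121.

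Most of these genes were modestly higher at 10 mM than at 1 mM glucose. With the responses of knockdown and control myotubes averaged, 27 of the 77 tested genes rose and 3 fell (limma, adjusted p under 0.05). The risen genes changed by 1.24-fold to 1.94-fold, with a median log2 change of 0.42, and the 3 that fell were Cox6a2, Uqcrq and Ndufa4l2. The total of 30 called genes is 39.0% of those tested, against 39.1% of all 13308 tested genes, so the share of called genes was close to that over all genes. The split by direction was 35.1% up and 3.9% down, against 21.3% up and 17.8% down over all genes. The median log2 change over the 77 genes was 0.25, against 0.01 over all genes, and 64 of them (83.1%) had a positive change, against 51.1% of all genes. After median centring of the arrays, the split over all genes turned to 2406 up and 2904 down, while 22 of the 77 genes rose and 3 fell.

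Both shRNA groups contributed to this average. In knockdown myotubes 14 of the 77 genes rose and 3 fell, a total of 22.1%, against 25.1% of all genes called (14.5% up, 10.6% down). In control myotubes 9 rose and 2 fell, a total of 14.3%, against 25.3% of all genes (13.2% up, 12.1% down). The median log2 change of the 77 genes was 0.28 in knockdown and 0.21 in control myotubes, against 0.03 and -0.01 over all genes. These 2 contrasts share no arrays. In them 57 of the 77 genes (74.0%) had positive changes in both, against 39.3% of all genes, and 9 had negative changes in both. Called in both were Atp5md, Atp5mpl, Ndufa3, Sdhd and Uqcrh, which rose, and Cox6a2 and Uqcrq, which fell. They are 41.2% of the genes called in knockdown and 63.6% of those called in control myotubes. The same shares over all genes were not taken, so the overlap is not shown to exceed that over all genes. Between the 2 contrasts the changes of the 77 genes correlated at a Pearson r of 0.706, below the 0.833 over all genes.

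In 26 of the 77 genes (33.8%) each of the 4 arrays at 10 mM glucose lay above each of the 4 at 1 mM, against 18.0% of all genes, and in 3 (3.9%) below, against 16.7%. The counts of calls depended on every array. The number called in knockdown myotubes was 3 and 4 without replicate 1 or 2 at 10 mM, 5 and 7 without replicate 1 or 2 at 1 mM, and 11 without any 1 of the control arrays. The number in control myotubes was 5 and 3 without replicate 1 or 2 at 10 mM, 5 and 3 without replicate 1 or 2 at 1 mM, and 7 or 8 without any 1 of the knockdown arrays. For the average, 21 to 28 genes were called with 1 array left out, and 18 of the 30 kept their call whichever array was left out. The other 12 lost it without at least 1 array: Atp5a1 without any 1 of the 8 (0.26 to 0.35 log2, limma adjusted p-values of 0.0515 to 0.118), and Atp5e, Atp5g2, Atp5h, Atp5k, Cox8a, Ndufa4, Ndufa13, Ndufs4, Ndufv2, Ndufv3 and Uqcrfs1 without some. Of the 17 calls in knockdown myotubes 2 (Cox6a2 and Cox8b) held with any 1 array left out, and of the 11 in control myotubes 2 (Cox6a2 and Uqcrq). Lost with any 1 array left out were the calls of Atp5h, Atp5pb, Ndufc2, Uqcrc2 and Uqcrh in knockdown and of Cox8a and Ndufs1 in control myotubes.

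**Figure D1:**
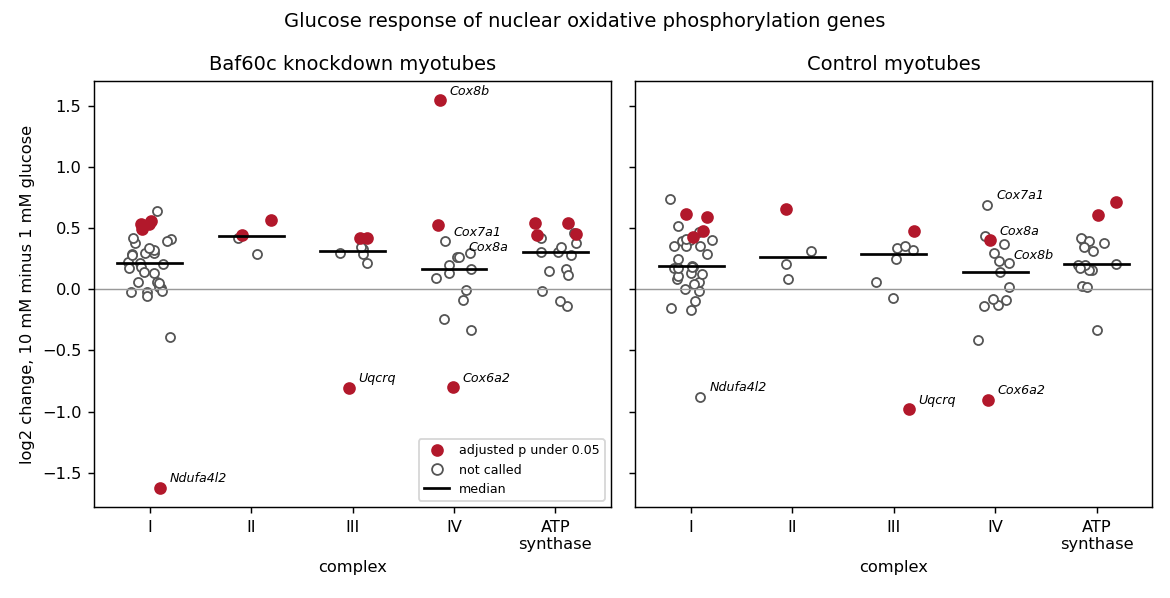
Log2 change of each of the 77 tested subunit genes at 10 mM minus 1 mM glucose, by complex, in knockdown (left) and control (right) myotubes; filled points passed the limma test, open points did not, and bars are medians. Most points lie above 0 in every complex, with Cox6a2, Uqcrq and Ndufa4l2 the lowest points of both panels and Cox8b the highest point in knockdown myotubes alone.

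The Nduf genes, placed under complex I by symbol, gave 11 rises and 1 fall among 33 tested for the averaged glucose response. Their median log2 change was 0.25. The fall was that of Ndufa4l2, and Ndufa4 was among the rises, both described further below. The total of 36.4% (33.3% up, 3.03% down) is close to the 39.1% over all genes (21.3% up, 17.8% down). Ndufa3, an accessory subunit of the membrane arm, had 9.71 and 9.85 in knockdown myotubes at 10 mM glucose, against 9.21 and 9.28 at 1 mM, and 9.56 and 9.67 in control myotubes at 10 mM, against 8.97 and 9.08 at 1 mM. Its arrays at 10 mM were all above those at 1 mM, and the averaged log2 change was 0.56 ± 0.09 (SE, limma adjusted p = 0.00247), 1.48-fold.

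Among the core subunits, the conserved set to which the redox centres belong, Ndufs1 (0.41), Ndufs3 (0.40) and Ndufv2 (0.32) rose in the averaged log2 response. Ndufs1 and Ndufs3 were called in control myotubes alone (0.43 and 0.47 log2), and no test showed a difference between the shRNA groups. The control call of Ndufs1 was lost with any 1 array left out (limma adjusted p-values of 0.0627 to 0.182), and that of Ndufs3 held in 3 of 8 such fits. Accessory subunits that rose were Ndufv3 (0.53), Ndufs4 (0.48), Ndufa7 (0.46), Ndufc2 (0.45), Ndufc1 (0.45) and Ndufa13 (0.34), with Ndufs4, which stabilises the NADH-oxidising end of the complex, called in control myotubes (0.62) and Ndufa7, Ndufc1 and Ndufc2 in knockdown myotubes (0.56, 0.54 and 0.50). With 1 array left out, the control call of Ndufs4 held in 1 of 8 fits, and the knockdown calls of Ndufa7 in 5, of Ndufc1 in 4 and of Ndufc2 in 0. Ndufs8, another core subunit, had 0.11 ± 0.09 (SE, limma adjusted p = 0.363) and was not called. The core subunits Ndufs7 and Ndufv1 were not called either.

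Ndufa4 and Ndufa4l2 carry complex I symbols, although the Ndufa4 protein is now counted with complex IV. Ndufa4l2 is its paralogue, known as a target of the hypoxia-induced factor HIF-1. Ndufa4 had 9.71 and 10.004 in knockdown myotubes at 10 mM glucose, against 9.47 and 9.49 at 1 mM, and 9.84 and 9.98 in control myotubes at 10 mM, against 9.69 and 9.32 at 1 mM. It rose by 0.39 ± 0.12 log2 in the average (SE, limma adjusted p = 0.0373), a call that held in 2 of 8 fits with 1 array left out. Ndufa4l2 had 3.53 and 2.45 in knockdown myotubes at 10 mM glucose, against 4.61 and 4.62 at 1 mM, and 3.64 and 3.30 in control myotubes at 10 mM, against 4.12 and 4.57 at 1 mM.

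The arrays of Ndufa4l2 at 10 mM were all below those at 1 mM. Its averaged log2 change was -1.25 ± 0.24 (SE, limma adjusted p = 0.00516), and the change in knockdown myotubes was -1.63 ± 0.34 (limma adjusted p = 0.0117). Without replicate 1 of the knockdown at 1 mM the change in knockdown myotubes had an adjusted p of 0.0501. These values lie near the dim end of the scale, where RMA compresses differences, and the 2 knockdown arrays at 10 mM differed by more than 1 log2 unit.

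Complex II, which also serves the citric acid cycle, has 4 subunits, all of them nuclear, and all 4 had positive changes in both shRNA groups. Sdhd, a membrane anchor, had 9.004 and 9.11 in knockdown myotubes at 10 mM glucose, against 8.63 and 8.59 at 1 mM, and 9.01 and 9.14 in control myotubes at 10 mM, against 8.47 and 8.36 at 1 mM. The groups did not overlap, and the averaged log2 change was 0.55 ± 0.09 (SE, limma adjusted p = 0.00241). Sdha, the flavoprotein that oxidises succinate, rose by 0.45 ± 0.10 in the average (limma adjusted p = 0.00948) and by 0.57 in knockdown myotubes. The iron-sulfur protein Sdhb (0.25) and the anchor Sdhc (0.25) were not called.

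Of 8 tested complex III genes, 3 rose and 1 fell in the average, a total of 50%, against 39.1% of all genes. Uqcrh, the hinge protein beside cytochrome c1, rose by 0.45 ± 0.09 log2 (SE, limma adjusted p = 0.00568) and was called in both shRNA groups. These 2 calls held in 0 of 8 fits in knockdown and 2 of 8 in control myotubes with 1 array left out. The core protein gene Uqcrc2 (0.38) and Uqcrfs1 (0.36), which encodes the Rieske iron-sulfur protein, rose as well. Cyc1, which encodes cytochrome c1, was not called, with a log2 change of 0.13 ± 0.11 (limma adjusted p = 0.368).

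Uqcrq, a small subunit of complex III, went the other way. It had 2.90 and 3.37 in knockdown myotubes at 10 mM glucose, against 3.99 and 3.88 at 1 mM, and 2.83 and 2.96 in control myotubes at 10 mM, against 3.93 and 3.82 at 1 mM. The 4 arrays at 10 mM were all below the 4 at 1 mM, and the averaged log2 change was -0.89 ± 0.12 (SE, limma adjusted p = 0.00117). The call in knockdown myotubes was lost without replicate 1 at 10 mM (log2 change -0.57, limma adjusted p = 0.0781) and without replicate 1 at 1 mM (-0.75, limma adjusted p = 0.0691). Its probe set is dim, as is that of Ndufa4l2.

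ATP synthase gave 8 rises and 0 falls among 17 tested genes, with a median log2 change of 0.31. The total of 47.1%, all up, stands against 39.1% of all genes (21.3% up, 17.8% down). Atp5md, a small subunit of the membrane part involved in dimer stability, had 11.02 and 10.99 in knockdown myotubes at 10 mM glucose, against 10.37 and 10.56 at 1 mM, and 10.74 and 10.96 in control myotubes at 10 mM, against 10.27 and 10.22 at 1 mM. The groups did not overlap, and it rose by 0.57 ± 0.10 log2 (SE, limma adjusted p = 0.00309). Atp5mpl, a small proteolipid of the same part, rose by 0.63 ± 0.10 log2 (limma adjusted p = 0.00271), and both genes were called in each shRNA group.

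The other risen ATP synthase genes encode the epsilon subunit (Atp5e, 0.42 log2), subunits of the peripheral stalk and membrane part (Atp5pb, 0.38, Atp5h, 0.33, and Atp5k, 0.39), a precursor of the c ring (Atp5g2, 0.34) and the alpha subunit (Atp5a1, 0.31). Atp5b, the catalytic beta subunit, had 0.10 ± 0.09 (SE, limma adjusted p = 0.397) and was not called. The rises of Atp5e and Atp5h belonged to the brighter of their 2 probe sets. The dimmer ones had averaged changes of -0.31 and -0.39, neither called, and with both probe sets averaged the log2 change was 0.06 for Atp5e (limma adjusted p = 0.783) and -0.03 for Atp5h. The dimmer probe set of Atp5g2 rose by 0.32. Whether the brighter probe sets of Atp5g2, Atp5h and Cox5b also read retrocopies was not tested.

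**Figure D2:**
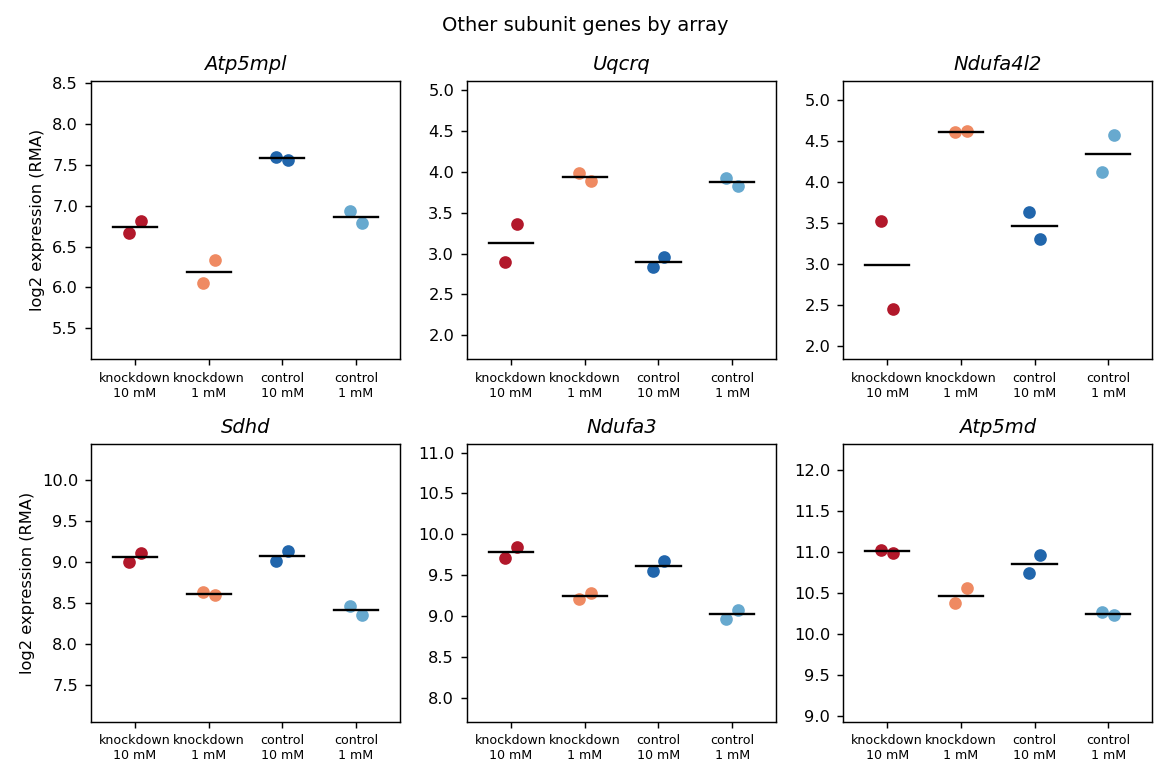
Log2 expression of Atp5mpl, Uqcrq, Ndufa4l2, Sdhd, Ndufa3 and Atp5md on each of the 8 arrays (points) with group means (bars), on axes of equal span. Uqcrq and Ndufa4l2 are lower at 10 mM than at 1 mM glucose, the others are higher, and Atp5mpl is also lower in knockdown than in control myotubes.

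The genes placed under complex IV by symbol, which leave out Ndufa4, spread in both directions. Of 15 tested genes 3 rose and 1 fell, the median log2 change was 0.06, and 9 of the 15 changes were positive. The total of 26.7% (20% up, 6.67% down) is below the 39.1% over all genes (21.3% up, 17.8% down). Cox6b1, a subunit on the intermembrane side, rose by 0.48 ± 0.10 log2 (SE, limma adjusted p = 0.00747), while Cox4i1 (-0.04), Cox5a (0.06), Cox5b (0.08), Cox7b (-0.07) and Cox7c (0.06) were not called.

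The muscle isoform Cox6a2 fell with glucose in both shRNA groups. It had 6.74 and 6.70 in knockdown myotubes at 10 mM glucose, against 7.51 and 7.54 at 1 mM, and 7.36 and 7.35 in control myotubes at 10 mM, against 8.20 and 8.31 at 1 mM. Replicates lay close together in every group, and no groups compared overlapped. The log2 change was -0.80 ± 0.12 in knockdown myotubes (SE, limma adjusted p = 0.00279), which is 1.75-fold lower, and -0.90 ± 0.12 in control myotubes (limma adjusted p = 0.00204), which is 1.87-fold lower. Both calls held with any 1 array left out. Its partner Cox6a1 had log2 changes of 0.13 in knockdown and 0.30 in control myotubes and was not called.

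The muscle isoform Cox8b rose with glucose in knockdown myotubes. It had 5.30 and 5.87 in knockdown myotubes at 10 mM glucose, against 3.94 and 4.12 at 1 mM, and 6.38 and 5.94 in control myotubes at 10 mM, against 5.83 and 5.75 at 1 mM. The knockdown arrays at 1 mM stood below all others. The log2 change with glucose was 1.55 ± 0.23 in knockdown myotubes (SE, limma adjusted p = 0.00266), which is 2.92-fold, and 0.37 ± 0.23 in control myotubes, where it was not called (limma adjusted p = 0.274). Its partner Cox8a had 10.23 and 10.21 in knockdown myotubes at 10 mM glucose, against 9.96 and 9.95 at 1 mM, and 10.29 and 10.23 in control myotubes at 10 mM, against 9.84 and 9.87 at 1 mM. Cox8a rose by 0.33 ± 0.08 log2 in the average (limma adjusted p = 0.0154). Its call in control myotubes alone (0.40, limma adjusted p = 0.0416) was lost with any 1 of the 8 arrays left out, at adjusted p-values of 0.0588 to 0.137.

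The muscle isoform Cox7a1 was not called in any comparison. It had 4.42 and 3.86 in knockdown myotubes at 10 mM glucose, against 4.03 and 3.47 at 1 mM, and 5.05 and 4.45 in control myotubes at 10 mM, against 4.18 and 3.94 at 1 mM. The groups overlapped in knockdown but not in control myotubes, and the averaged glucose change of 0.54 had a 95% interval of 0.06 to 1.02 before adjustment (limma adjusted p = 0.0727). It was called without replicate 1 of the knockdown at 1 mM (0.68, limma adjusted p = 0.0492) and without replicate 2 of the control at 10 mM (0.70, limma adjusted p = 0.0476). Its partner Cox7a2 had a change of 0.15 ± 0.10 and was not called.

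**Figure D3:**
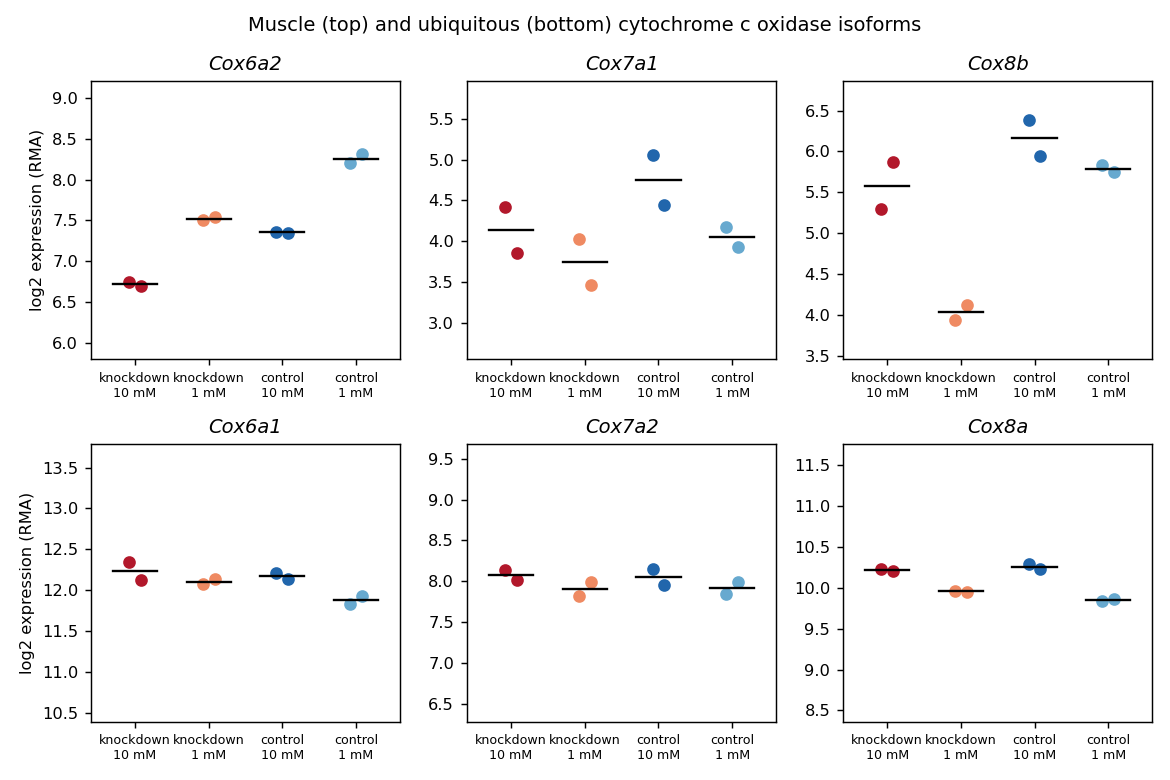
Log2 expression of the muscle isoforms Cox6a2, Cox7a1 and Cox8b (top) and of their widely expressed partners Cox6a1, Cox7a2 and Cox8a (bottom) on each of the 8 arrays (points) with group means (bars), on axes of equal span. Cox6a2 is lower at 10 mM glucose and lower in the knockdown, Cox8b is lowest in knockdown myotubes at 1 mM, and the partners vary less between groups.

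The promoters of 64 of the 81 genes were matched by gene identifier in RefSeq (GRCm38.p6) as the 250 bases before and 50 after the start of the gene. Those of Cox8b and Cox7a1 are shown, each above that of its partner. They are the muscle isoform pairs with both promoters matched, and Cox8b had the largest rise of all 77 genes. Cox6a2 and Atp5mpl are named only. Capitals mark the motifs searched on both strands: the E-box CANNTG, bound by MyoD family proteins among others, the NRF1 core TGCGCA and the ETS motif CTTCCGG of GABPA.
Cox8b, chr7:140900397-140900696, minus strand: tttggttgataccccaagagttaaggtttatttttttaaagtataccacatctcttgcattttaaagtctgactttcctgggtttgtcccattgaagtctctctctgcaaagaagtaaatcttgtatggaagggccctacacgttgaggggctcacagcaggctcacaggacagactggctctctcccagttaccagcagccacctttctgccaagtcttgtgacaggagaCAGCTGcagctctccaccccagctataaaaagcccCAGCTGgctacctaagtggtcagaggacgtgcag
Cox8a, chr19:7217567-7217866, minus strand: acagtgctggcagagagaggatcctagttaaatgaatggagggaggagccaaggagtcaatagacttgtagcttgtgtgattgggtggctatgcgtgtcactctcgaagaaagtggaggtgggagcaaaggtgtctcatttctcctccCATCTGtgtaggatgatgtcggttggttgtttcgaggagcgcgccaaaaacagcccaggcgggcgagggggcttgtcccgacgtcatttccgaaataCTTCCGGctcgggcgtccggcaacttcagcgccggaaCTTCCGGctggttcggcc
Cox7a1, chr7:30183921-30184220, plus strand: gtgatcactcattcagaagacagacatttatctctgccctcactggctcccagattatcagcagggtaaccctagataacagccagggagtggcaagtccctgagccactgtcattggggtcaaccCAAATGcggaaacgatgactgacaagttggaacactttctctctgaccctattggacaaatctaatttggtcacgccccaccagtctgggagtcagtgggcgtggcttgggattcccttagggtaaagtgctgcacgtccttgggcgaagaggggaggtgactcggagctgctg
Cox7a2, chr9:79759804-79760103, minus strand: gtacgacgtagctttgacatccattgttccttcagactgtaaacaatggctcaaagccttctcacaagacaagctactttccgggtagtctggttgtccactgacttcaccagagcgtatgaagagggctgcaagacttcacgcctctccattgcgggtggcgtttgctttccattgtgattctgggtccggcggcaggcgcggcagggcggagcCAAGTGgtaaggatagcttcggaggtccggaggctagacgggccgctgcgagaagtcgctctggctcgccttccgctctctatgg

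The Cox8b promoter held 2 E-boxes, both CAGCTG, one of them 19 bases before the start, no match of the other motifs, and 2 CpG dinucleotides. The Cox8a promoter held 1 E-box, 2 GABPA motifs and 19 CpG. The Cox7a1 promoter held 1 E-box (CAAATG) and 7 CpG, and that of its partner Cox7a2 also held 1 E-box (CAAGTG), with 20 CpG, so this pair did not differ in the motifs matched. Over the 64 promoters, the NRF1 core was present in 25% and the GABPA motif in 25%, against 8.06% and 9.12% of all 27025 promoters. The half-site AAGGTCA of the ERR receptors was in 9.38%, against 4.66%, and the YY1 motif AAGATGG in 14.1%, against 6.48%. The E-box was in 70.3%, against 72.1%, and the MEF2 motif in 0, against 1.89%. The matched promoters were also richer in CpG, with a median of 19 against 7, and in GC, with 57.3% against 52.7%, and the part of base composition in the motif shares was not tested.

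The Baf60c knockdown moved few genes, and the share called among these 77 was close to that over all genes. At 10 mM glucose none of the 77 was called by limma, against 1.12% of all genes (0.428% up, 0.691% down), with 4 genes at an unadjusted p under 0.05. At 1 mM glucose 0 rose and 2 fell (2.6%), against 1.49% of all genes (0.233% up, 1.25% down), with 5 genes at an unadjusted p under 0.05. With both glucose concentrations averaged 0 rose and 3 fell (3.9%), against 4.31% of all genes (1.60% up, 2.71% down), and those 3 were Cox6a2, Cox8b and Atp5mpl. The median log2 change of the 77 genes was -0.00 at 10 mM, -0.02 at 1 mM and -0.02 in the average, against 0.01, -0.03 and -0.01 over all genes.

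The value of Cox8b in knockdown myotubes at 1 mM glucose, given above, corresponds to a log2 change of -1.75 ± 0.23 against control (SE, limma adjusted p = 0.0153), which is 3.37-fold lower. At 10 mM the change was -0.58 ± 0.23 (limma adjusted p = 0.328). The 1 mM call was lost without any 1 of the 4 arrays compared, with log2 changes of -1.66 to -1.84 and adjusted p-values of 0.0678 to 0.109, whereas the averaged change of -1.17 ± 0.16 (limma adjusted p = 0.0108) kept its call without each of the 8 arrays.

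Cox6a2 had log2 changes in the knockdown of -0.73 ± 0.12 at 1 mM glucose (SE, limma adjusted p = 0.0345) and -0.64 ± 0.12 at 10 mM (limma adjusted p = 0.0618). The 1 mM call was lost without any 1 of the 8 arrays, at adjusted p-values of 0.0686 to 0.177, and the averaged change of -0.68 ± 0.08 (limma adjusted p = 0.00726) kept its call without each of them. In the knockdown Cox7a1 had an averaged log2 change of -0.46, with a 95% interval of -0.94 to 0.02 (limma adjusted p = 0.278). The partners Cox6a1 (0.14), Cox7a2 (0.01) and Cox8a (0.03) were not called.

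Atp5mpl had 6.66 and 6.82 in knockdown and 7.59 and 7.56 in control myotubes at 10 mM glucose, and 6.06 and 6.34 in knockdown and 6.94 and 6.79 in control myotubes at 1 mM. The groups did not overlap at either concentration. Its averaged log2 change was -0.76 ± 0.10 (SE, limma adjusted p = 0.0109), and it was not called at 10 mM (adjusted p = 0.0514) or at 1 mM (adjusted p = 0.0843) alone. Without replicate 1 of the knockdown at 10 mM the average had an adjusted p of 0.0509. Each of the 4 knockdown arrays lay below each control array for 1 gene, Cox4i2, and above for 1, Ndufb10, against 3.20% and 2.23% of all genes.

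**Figure D4:**
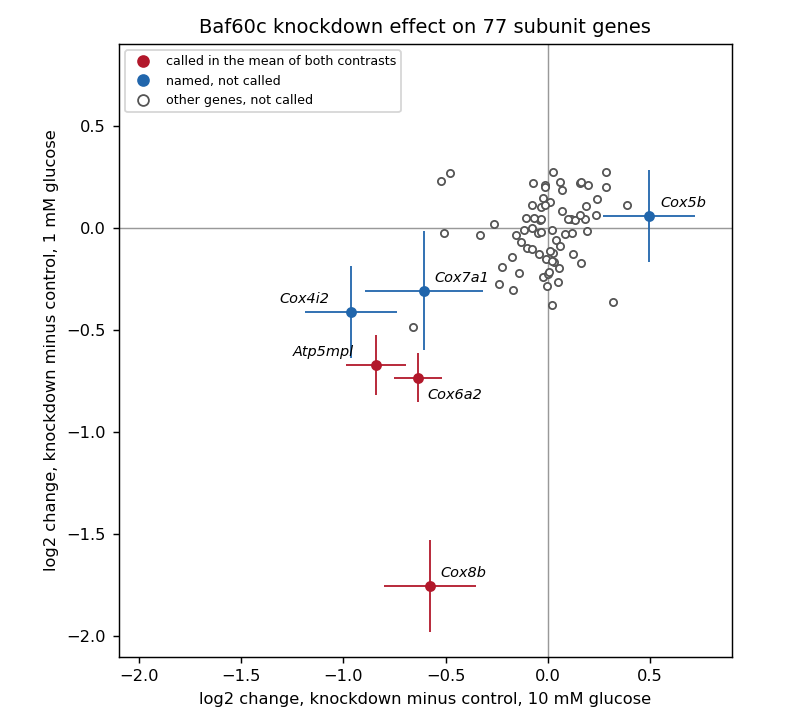
Log2 change, knockdown minus control, of each of the 77 tested subunit genes at 10 mM glucose (horizontal) and at 1 mM glucose (vertical), with standard errors for named genes. Red points passed the limma test for the mean of both contrasts, blue points are named but did not pass, and most genes lie close to 0 on both axes.

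No gene was called for the interaction, the glucose response in knockdown minus that in control myotubes, either among the 77 or among all 13308 (0.00% called by limma, with 1049 genes at an unadjusted p under 0.05). Of the 77, 1 gene, Cox8b, had an unadjusted p under 0.05, with an interaction of 1.18 ± 0.32 on the log2 scale (SE, limma adjusted p = 0.488). The larger glucose change of Cox8b in knockdown myotubes is therefore not shown to differ from that in control myotubes after adjustment. For Cox6a2 the interaction was 0.10 (limma adjusted p = 0.912), and for Cox7a1 it was -0.29 (limma adjusted p = 0.893).

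The remaining tissue-restricted isoforms were dim. Cox4i2, a paralogue of Cox4i1 known from lung, lay between 2.02 and 2.51 in the knockdown and between 2.65 and 3.35 in control arrays, and its averaged knockdown change of -0.69 ± 0.16 did not pass the test (SE, limma adjusted p = 0.0612). Cox6b2, known from testis, lay between 2.50 and 3.29 on all arrays, and Cox7b2 and Cox8c were below the filter at 1.27 to 1.99. Cox7a2l, a factor for supercomplexes of complexes III and IV, had averaged log2 changes of -0.01 with glucose and -0.27 with the knockdown, neither called.

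Other genes of the pathway were taken from lists by function. The subunits encoded in mitochondrial DNA gave 0 limma calls among 10 tested in every comparison, with 0 at an unadjusted p under 0.05 and log2 changes of -0.24 to 0.22 in the 2 glucose contrasts; their mean log2 level of 12.25 to 12.40 per array is near the top of the scale of these files, which ends at 13.62. Assembly factors, which build the complexes without staying in them, gave 8 rises and 8 falls among 45 tested in the averaged glucose response, with a median log2 change of 0.03. That is 17.8% up and 17.8% down, a total of 35.6%, close to the 39.1% over all genes. The largest falls among them were of Cox10, a heme A synthesis enzyme (-0.91), Cox18, an insertase (-0.90), Ndufaf4, a complex I factor (-0.84), and Lrpprc, a stabiliser of mitochondrial mRNAs (-0.59). Cox20 (0.60), Coa3 (0.51) and Atpaf1 (0.44) rose, Atpaf1 being an ATP synthase assembly factor. The call of Cox20 held in 3 of 8 fits with 1 array left out.

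Among genes for mobile carriers and quinone synthesis, 3 rose and 1 fell of 16 tested: Coq8a, Etfb (0.47), Etfdh (0.32) and, falling, Coq4 (-0.37). The total of 25% lies below that over all genes, and with 1 array left out the call of Etfdh held in 1 of 8 fits and that of Coq4 in 4. Coq8a, a kinase-like protein needed for ubiquinone synthesis, had 5.47 and 5.59 in knockdown myotubes at 10 mM glucose, against 4.15 and 4.02 at 1 mM, and 5.999 and 6.293 in control myotubes at 10 mM, against 5.58 and 5.49 at 1 mM. As with Cox8b, the knockdown arrays at 1 mM were the lowest. Its log2 change with glucose was 1.45 ± 0.15 in knockdown (SE, limma adjusted p = 0.000638) and 0.61 ± 0.15 in control myotubes (limma adjusted p = 0.0213). The control call was lost without replicate 2 at 10 mM or either replicate at 1 mM, with log2 changes of 0.47 to 0.65 and adjusted p-values of 0.0665 to 0.106. The knockdown change of Coq8a was -1.45 ± 0.15 at 1 mM (limma adjusted p = 0.00597), with an adjusted p of 0.0509 and 0.061 without replicate 1 or 2 of the control at 1 mM. It was the only gene of the list called in the averaged knockdown effect.

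Regulators of mitochondrial biogenesis gave 0 rises and 5 falls among 16 tested in the averaged glucose response, with a median log2 change of -0.18. The 31.2% called is below the 39.1% over all genes, of which 17.8% fell. Pprc1, a coactivator of the PGC-1 family, had 5.76 and 5.68 in knockdown myotubes at 10 mM glucose, against 6.66 and 6.90 at 1 mM, and 5.33 and 5.76 in control myotubes at 10 mM, against 6.99 and 6.84 at 1 mM. It fell by 1.22 on the log2 scale in the average (limma adjusted p = 0.000300). The transcription factor genes Nrf1 (-0.40), Gabpb1 (-0.49) and Yy1 (-0.27) and the deacetylase gene Sirt1 (-0.40) fell too, while Ppargc1a (0.20), Esrra (-0.22) and Tfam (-0.33) were not called. Ppargc1b had the highest change of the list (0.54) and was not called either. The call of Yy1 was lost with any 1 array left out, at limma adjusted p-values of 0.063 to 0.127, and those of Nrf1, Gabpb1 and Sirt1 held in 7, 5 and 6 of 8 such fits. In the averaged knockdown effect none of the assembly factors and none of these regulators was called by limma, with 8 assembly factors and 1 regulator at an unadjusted p under 0.05.

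**Figure D5:**
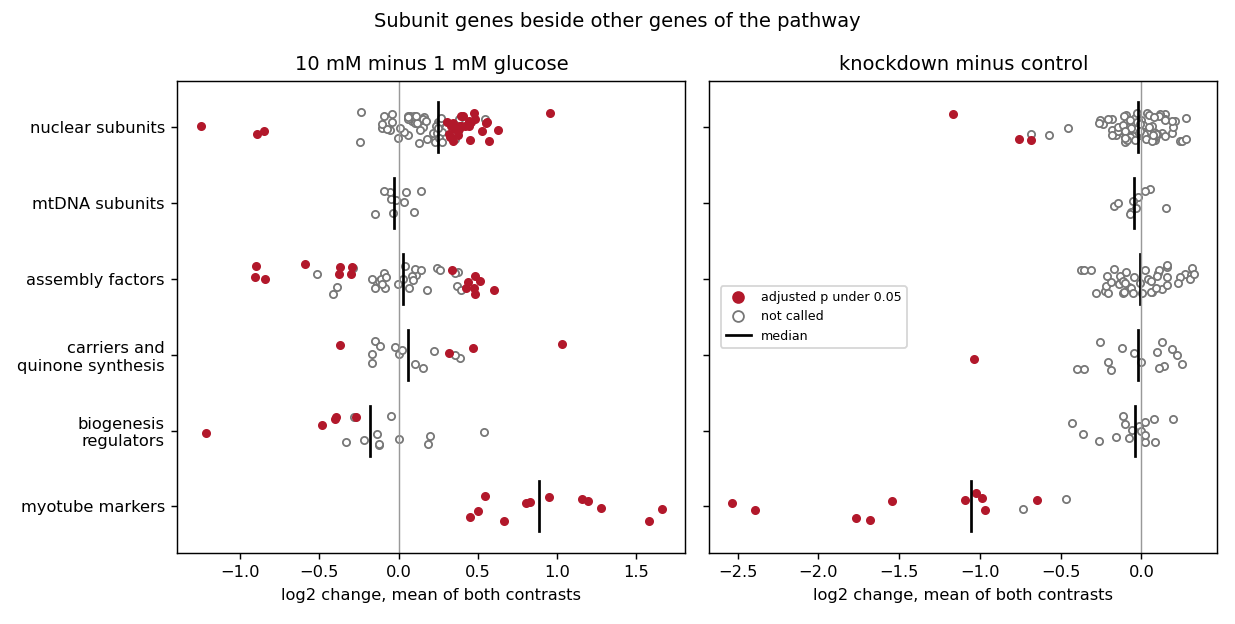
Log2 change of each tested gene of the subunit, mitochondrial DNA, assembly, carrier, regulator and myotube marker lists, averaged over both glucose contrasts (left) and both knockdown contrasts (right); filled points passed the limma test and bars are medians. The nuclear subunits are shifted above 0 with glucose and centred on 0 with the knockdown, and the myotube markers are shifted in both.

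Markers of cell state moved with the same comparisons. Myotube markers, among them Myog, Ckm and Myom1, had a mean log2 level per array of 8.18 and 8.22 in knockdown myotubes at 10 mM glucose, 6.90 and 7.06 in knockdown at 1 mM, 9.18 and 9.36 in control at 10 mM, and 8.54 and 8.55 in control at 1 mM. With glucose, 12 of the 12 rose in knockdown myotubes, against 14.5% of all genes, and 7 of 12 in control myotubes, against 13.2%. Of the 12, 6 fell in the knockdown at 10 mM, against 0.691% of all genes, and 10 at 1 mM, against 1.25%. By group means, the order of the groups in these markers is that of Cox8b and also of Atp5mpl. Both were named for being lower in the knockdown and, in the average, higher with glucose, which fixes most of that order. The rest rests on knockdown at 10 mM against control at 1 mM, whose arrays overlapped: 5.30 and 5.87 against 5.83 and 5.75 for Cox8b, and 6.66 and 6.82 against 6.94 and 6.79 for Atp5mpl. The order of Cox6a2 was another, with its highest level in control myotubes at 1 mM. Fewer myotubes in a dish and less of a transcript per myotube cannot be told apart in such bulk RNA, and the part of myotube content in these results was not tested.

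All 6 tested cell cycle markers rose with glucose in both shRNA groups, against 14.5% of all genes in knockdown and 13.2% in control myotubes. Their mean log2 level was 7.20 and 6.85 in knockdown myotubes at 10 mM, 4.82 and 4.36 in knockdown at 1 mM, 7.38 and 7.16 in control at 10 mM, and 4.57 and 4.56 in control at 1 mM, and the part of this change in the rise of the subunit genes was not tested. The 4 tested fibroblast markers rose in both groups as well, against the same shares of all genes. Their mean was 9.22 to 9.38 at 10 mM and 7.54 to 7.86 at 1 mM. The fibroblast marker Thy1 stayed at 1.62 to 2.31 on all arrays. Of the myoblast markers 3 of 8 rose and 2 fell in the averaged glucose response, against 21.3% up and 17.8% down over all genes. Of 4 macrophage markers, Adgre1 and Csf1r were below the filter and Cd68 and Ptprc fell, the call of Ptprc holding in 2 of 8 fits with 1 array left out, and of 4 adipocyte markers Fabp4 and Cidec were below it and Adipoq and Plin1 were not called.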

How the data were processed

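Total RNA was hybridised to Affymetrix Mouse Gene ST 2.1 arrays. The authors deposited log2 expression values made with RMA and affy, per the submitters' processing notes, whose versions are not given in the sources used here. RMA sets all arrays to a common distribution, so a shift of the whole transcriptome is lost, and it compresses differences of dim genes. Of 41345 probe sets, 23521 had 1 gene, 1814 several and 16010 none in the platform annotation. Gene identifiers of 23328 matched RefSeq (GRCm38.p6). Each of 22180 genes was read from its probe set with the highest mean, and 13308 with a mean at or above the 40th percentile (log2 2.30) were tested. Array medians were 5.89 to 6.02, and no further scaling was applied.

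limma 3.58.1 (R 4.3.3; lmFit, eBayes) was fitted with 4 group means over all 8 arrays, with 4 residual and 3.36 prior degrees of freedom. Tests were two-sided, with Benjamini-Hochberg adjustment over all genes tested and calls at an adjusted p under 0.05. The averaged effects are the means of the 2 glucose or the 2 knockdown contrasts. The self-test on simulated data ran through the same fit. Alternatives changed the filter, scaling, variance model, probe set rule, replicate block, arrays fitted and each array left out.

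Named genes are the isoform pairs, members called in a knockdown or averaged contrast, up to 6 called members per complex and glucose contrast, and up to 4 called genes per list; others named were added as contrasts to them after their values were seen. Members and lists were chosen with earlier results of these data known. The number of arrays limits the precision, and scan batches are not given in the sources used here.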

Additional observations from a re-analysis of the deposited data

Results flagged for a closer look

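The 9 second probe sets of subunit genes and 10 probe sets shared with another gene entered no comparison of genes. When they were added to the limma fit after the data were seen, 4 of them were called in the averaged glucose response. Over all genes, 39.1% were called in that response. The dimmer probe set of Atp5d, the delta subunit of ATP synthase, changed by 0.72 log2 with glucose in knockdown and by 1.201 in control myotubes, whereas its main probe set changed by 0.31 and 0.16 and was not called. Its arrays read 7.75 and 7.31 in knockdown myotubes at 10 mM glucose, against 6.80 and 6.82 at 1 mM, and 7.977 and 8.002 in control myotubes at 10 mM, against 6.63 and 6.95 at 1 mM. A dim probe set shared by Ndufs1 and Ino80dos changed by 0.72 in knockdown and by 0.98 in control myotubes, and the other probe set of Atp5g2 changed by 0.43 in control myotubes. The fourth, shared by Cox6c and Gm6265, was called in the averaged response alone (0.36). No cause of these differences between probe sets was tested.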

How the results depend on the processing

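Depth does not apply to arrays, and dim probe sets and 2 arrays per group set the limits. Directions under the alternatives were read for the called subunit genes and for part of the called genes of the other lists. All of these changes kept their direction under every alternative run, except Atp5h in the averaged glucose response with the mean of its probe sets (-0.033). For glucose in knockdown myotubes, 17 calls became 9 without a filter, 9 with arrays centred on their medians (median change 0.189), 26 with an intensity trend, 11 with the replicate block, 6 with the compared groups alone and 3 to 11 without 1 array. For glucose in control myotubes, 11 calls became 6 without a filter, 19 with the 60th percentile filter, 20 with the trend, 7 with the compared groups alone and 3 to 8 without 1 array. For the knockdown at 10 mM, 0 calls became 2 with the 60th percentile filter, 2 with the trend, and 1 with centring, quantile normalization or the mean of probe sets. For the knockdown at 1 mM, 2 calls became 1 without a filter, with the replicate block or with the compared groups alone, and 0 to 1 without 1 array. The averaged effects gave 2 to 3 knockdown calls and 21 to 28 glucose calls without 1 array.

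With centring, the share of all called genes that were higher at 10 mM glucose was 46.9% against 57.9% in knockdown myotubes, 46.3% against 52.2% in control myotubes and 45.3% against 54.5% in the average, so that falls outnumbered rises, and the median of all genes moved by under 0.1 log2. Uncalled values near 0 changed sign. Without 1 array, the ranges were -0.051 to 0.174 for Cox6a1 at 10 mM, -0.602 to 0.001 for the Cox7a1 interaction, and for Cox7a2 -0.078 to 0.118 (knockdown at 10 mM), -0.098 to 0.079 (1 mM), -0.044 to 0.054 (averaged) and -0.069 to 0.127 (interaction). For averaged glucose they were -0.111 to 0.024 for Cox4i1, -0.186 to 0.071 for Cox4i2, -0.221 to 0.009 for Cox6b2 and -0.175 to 0.164 for Cox7a2l. With centring and quantile normalization they were Cox7a2 at 1 mM (0.043, 0.023) and for the interaction (-0.017, -0.010), and with quantile normalization Cox8a averaged over the knockdown contrasts (-0.002). Arrays with the same replicate number did not deviate together (r of -0.0385 to 0.108 over 6 pairs of groups, 4 of 8 arrays closest to their own number), so the numbers were not taken to pair the samples. With the replicate block, Cox7a1 was called for glucose in the average (0.544, limma adjusted p = 0.00847) and in control myotubes (0.694, limma adjusted p = 0.0196). The causes were not tested.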

Other observations

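The 5 subunit symbols Uqcr10, Ndufs6, Cox6c, Ndufb4 and Ndufb2 were read only by probe sets that also name another gene, and they belong to no count given above. The bright probe set of Cox6c and Gm6265 had 10.72 and 10.74 in knockdown myotubes at 10 mM glucose, against 10.39 and 10.28 at 1 mM, and 10.62 and 10.59 in control myotubes at 10 mM, against 10.49 and 10.07 at 1 mM. Its averaged glucose change was 0.36 ± 0.11 log2 (SE, limma adjusted p = 0.0399), in the direction of most subunit genes. The probe set of Uqcr10 and Gm6293 had 5.81 and 5.80 in knockdown myotubes at 1 mM glucose, against 6.44 and 6.52 in control myotubes at 1 mM, and its knockdown change there of -0.68 ± 0.16 did not pass the test (SE, limma adjusted p = 0.105).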
